A study of Mus musculus with 9 samples.

Results

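The Krüppel-like factor (KLF) genes described here were 10 members of the family, Klf2, Klf3, Klf4, Klf6, Klf7, Klf9, Klf10, Klf11, Klf13 and Klf16, taken by gene symbol and not by their values. Of these, 9 had a row among the 15228 genes of the expression table, and the expression of Klf11 was not analysed here. The question was how the growth-repressing members Klf4 and Klf9 and the growth-promoting members Klf6 and Klf7 stood to each other in injured and zinc-chelated retinal ganglion cells (RGCs). Levels were RPKM, the reads of a gene scaled to the length of its exons (in kilobases) and to the size of the library, so they can be compared between genes. Gene positions are given on GRCm38 (mm10), from the first to the last exon base in the table.

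RNA was sequenced from RGCs sorted from retinas of wild-type (WT) C57BL/6J mice of both sexes, 6 to 8 weeks old at surgery. RGCs are the neurons whose axons form the optic nerve. Ctrl libraries came from eyes without injury. ONC libraries came from eyes 3 d after optic nerve crush with PBS injected into the eye as vehicle, and TPEN libraries from eyes 3 d after crush with 100 μM TPEN, a membrane-permeable zinc chelator, injected immediately after the crush. Each group held 3 libraries. Whether the libraries of a group were separate mice was not stated, so the p-values measure only the spread between these libraries. The uninjured eyes were not said to have had an injection, so crush and injection cannot be told apart in ONC/Ctrl.

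The libraries held 19946993 to 23109754 reads, and the members from 11 reads (Klf2) to 2142 reads (Klf9) in a library. The cells had been gated on the surface protein CD90.2 and on the absence of other surface antigens, leukocyte antigens among them. Of the defining RGC transcripts, Rbpms stood at only 0.495 to 0.688 RPKM in Ctrl, 0.357 to 0.444 RPKM in ONC and 0.246 to 0.449 RPKM in TPEN. Pou4f1 stood at 0.405 to 0.678, 0.0746 to 0.308 and 0.225 to 0.268 RPKM in the same order, so both were lower in every library after crush than in any Ctrl library. Both were too low to be tested, and the other RGC markers did not all move the same way. Of 6 tested, Nefm and Sncg rose in ONC/Ctrl, by 0.28 and 0.23 on the log2 scale, and 0 passed as lower. Isl1 was lower in every ONC library than in any Ctrl library but missed the threshold (−0.33, limma, adjusted p = 0.0705). Tubb3 and Nefl overlapped between Ctrl and ONC. Thy1, the gene of the CD90 protein used for the gate, measured 4.54 to 4.96 RPKM in Ctrl. It measured 5.26 to 5.54 RPKM in ONC and 6.70 to 7.58 RPKM in TPEN. Its difference did not pass in ONC/Ctrl (0.17, limma, adjusted p = 0.0983) and passed in TPEN/ONC (0.40, adjusted p = 0.00587). The neurofilament gene Nefl measured 254 to 260 RPKM in Ctrl, 256 to 271 RPKM in ONC and 193 to 206 RPKM in TPEN. Nefl was lower in TPEN/ONC by −0.42 (limma, adjusted p = 6.26e-05) and in TPEN/Ctrl by −0.38 (adjusted p = 4.93e-05). The part of these RGC marker differences in the KLF levels was not tested. The summed level of 5 rod photoreceptor markers was 14665 to 17578 RPKM, so the libraries held RNA of other retinal cells, and the KLF levels are those of the whole sorted fraction. In such libraries fewer cells of a type and less RNA per cell cannot be told apart. In ONC/Ctrl, 62.7% of all genes that passed the test were higher, against 46.9% after quantile normalization; the same shares were 43.9% and 53.9% in TPEN/ONC and 62.5% and 52.0% in TPEN/Ctrl.

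KLF proteins bind GC-rich and CACCC-type DNA through zinc fingers at their C-terminus and differ in the cofactors they recruit. Klf3 binds the corepressor CtBP, whereas Klf9, Klf10, Klf11, Klf13 and Klf16 carry a domain that binds the corepressor Sin3A, and Klf2, Klf4, Klf6 and Klf7 can recruit acetyltransferases. In neurons the family is known for setting the capacity for axon growth: Klf4 and Klf9 restrain the growth of RGC axons, and Klf6 and Klf7 promote it. Klf2 is best known from endothelial cells, T cells and macrophages, where the kinase ERK5 and the MEF2 factors induce it.

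The bases upstream of the transcript start are shown for the pair that represses growth, for Klf6, the growth-promoting member that changed after crush, and for Klf2, which changed most. They are the 250 bases before the RefSeq start on GRCm38.p6, written 5′ to 3′ on the strand of the gene. Capitals mark matches, on either strand, of 5 motifs: the GC box GGGCGG, the CACCC box CACCC, the E-box CACGTG, the AP-1 type site TGANTCA and the CCAAT box CCAAT.
Klf4, chr4:55532476-55532725, minus strand: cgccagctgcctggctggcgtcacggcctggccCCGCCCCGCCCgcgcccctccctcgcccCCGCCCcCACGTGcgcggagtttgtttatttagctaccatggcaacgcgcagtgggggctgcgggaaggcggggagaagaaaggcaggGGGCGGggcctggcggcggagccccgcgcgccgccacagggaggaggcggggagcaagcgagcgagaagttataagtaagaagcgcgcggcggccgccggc
Klf9, chr19:23140976-23141225, plus strand: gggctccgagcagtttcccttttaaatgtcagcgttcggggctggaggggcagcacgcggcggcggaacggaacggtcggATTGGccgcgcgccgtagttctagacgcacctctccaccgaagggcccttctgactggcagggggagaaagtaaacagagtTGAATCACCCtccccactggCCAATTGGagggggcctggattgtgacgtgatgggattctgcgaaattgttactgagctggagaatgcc
Klf6, chr13:5861239-5861488, plus strand: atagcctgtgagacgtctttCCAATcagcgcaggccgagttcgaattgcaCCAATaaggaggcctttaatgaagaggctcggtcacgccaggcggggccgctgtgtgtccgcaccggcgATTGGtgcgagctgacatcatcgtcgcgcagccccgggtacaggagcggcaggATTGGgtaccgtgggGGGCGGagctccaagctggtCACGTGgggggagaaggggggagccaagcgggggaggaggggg
Klf2, chr8:72318812-72319061, plus strand: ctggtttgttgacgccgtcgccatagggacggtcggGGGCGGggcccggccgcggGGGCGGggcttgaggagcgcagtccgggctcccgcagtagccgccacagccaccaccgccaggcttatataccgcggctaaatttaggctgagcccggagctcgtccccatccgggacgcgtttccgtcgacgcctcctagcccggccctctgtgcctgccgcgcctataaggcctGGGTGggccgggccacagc
The last 29 bases shown for Klf2 lie inside the gene as the expression table gives it.

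The upstream bases of Klf4 were 74.0% G and C, those of Klf2 71.2%, those of Klf6 64.8% and those of Klf9 59.6%, against a median of 52.4% over 32851 mouse promoters of the same table. Klf4 held 4 GC boxes, of which 2 share a base, and 1 E-box. Klf9 held no GC box. It held 3 CCAAT boxes, of which 2 overlap on opposite strands, and 1 AP-1 type site that overlaps its only CACCC box. Klf6 held 4 CCAAT boxes, 1 GC box and 1 E-box. Klf2 held 2 GC boxes and 1 CACCC box. Of all promoters in the table, 32.7% held a GC box, 52.0% a CACCC box, 6.02% an E-box, 6.75% the AP-1 type site and 33.8% a CCAAT box. The table had entries for 8 of the 10 members, with none for Klf10 and Klf16. The motifs were chosen with these promoters in view, and a match describes the letters only.

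**Figure D1:**
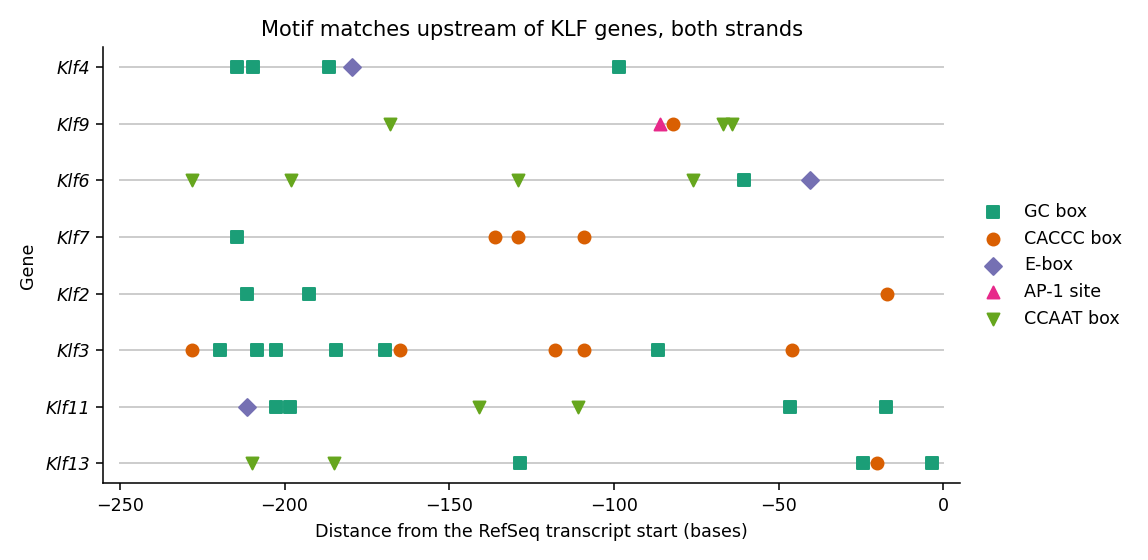
Positions of the motif matches in the 250 bases upstream of the RefSeq transcript start for the 8 KLF genes with an entry, one line per gene, with the distance from the start in bases on the horizontal axis and one symbol per motif. Klf4, Klf3 and Klf11 carry 4 or more GC boxes, and Klf9 carries none but has 3 CCAAT matches. All 250 bases of Klf7 and 133 of those of Klf3 lie inside the gene as the expression table gives it.

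Klf9 was by far the most abundant of the KLF transcripts in every library. It took 66.1% to 75.9% of the summed RPKM of the 9 members, and its mean ranked 1727 among the 15228 genes. The other 8 members together summed to 9.02 to 9.47 RPKM in Ctrl, 13.0 to 13.7 RPKM in ONC and 9.33 to 10.6 RPKM in TPEN. Klf6 was second in all 3 groups, and its range overlapped that of neither neighbour in the order.

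In Ctrl the order went on with Klf4 and Klf7, whose ranges overlapped, then Klf16 and Klf10, then Klf3 and Klf13, which also overlapped, and Klf2 was last. In ONC, Klf2 came next after Klf6, beside Klf4, with overlapping ranges of 1.96 to 2.55 RPKM and 1.88 to 2.46 RPKM. Klf7 and Klf10 followed with overlapping ranges, and then Klf16, Klf3 and Klf13. In TPEN, the 6 members from Klf7 down through Klf4, Klf10, Klf2 and Klf16 to Klf3 overlapped each with the next in the order, although Klf7 lay wholly above Klf10 and Klf3, and Klf13 was last at 0.399 to 0.566 RPKM.

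**Figure D2:**
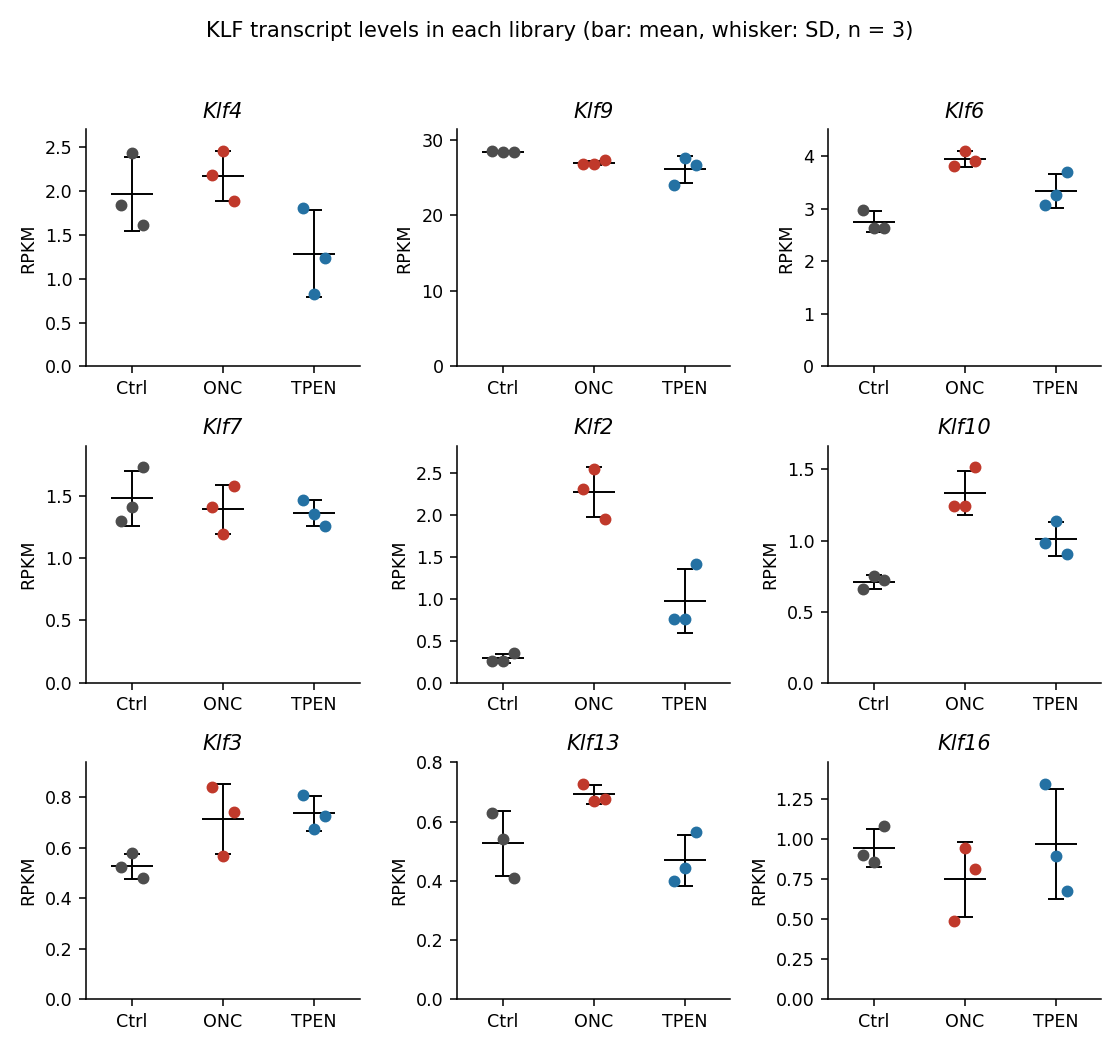
RPKM of the 9 KLF genes in each of the 9 libraries, 1 panel per gene with its own vertical axis from 0; points are libraries, horizontal bars group means and whiskers SD (n = 3). Klf2 rises from 0.258 to 0.351 RPKM in Ctrl to 1.96 to 2.55 RPKM in ONC, and Klf9 stays between 24.1 and 28.5 RPKM.

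After crush, 3 of the 9 members rose and none fell. Klf2 rose 7.79-fold in mean RPKM, Klf10 1.88-fold and Klf6 1.43-fold. The background was 11.7% of the 13566 genes tested higher and 6.97% lower at an adjusted p under 0.05. Klf2 and Klf10 also changed at least 1.5-fold, as 4.58% of all genes did in that direction. The median log2 fold change of the members was 0.35, against 0.017 for all genes tested. At an unadjusted p under 0.05 the members were 4 higher and 0 lower, where 18.4% of all genes were higher and 13.2% lower. The test on whole reads (voom in limma) also called 4 members higher, adding Klf3, and 0 lower, against 14.2% and 9.52% of all genes.

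With TPEN after crush, Klf2 alone passed the test against ONC, falling to 0.430 of its ONC mean. No member rose by limma. Among all genes 3.24% were higher and 4.14% lower, and 1.21% were lower by at least 1.5-fold, as Klf2 was. At an unadjusted p under 0.05 the members were 0 higher and 5 lower, against 9.63% and 12.3% of all genes, and voom called 0 higher and 3 lower, against 5.45% and 6.99%. The median of the members was −0.23 on the log2 scale, against −0.011 for all genes. Against Ctrl, Klf2 was the only member that passed in TPEN, 3.35-fold higher, where 8.36% of all genes were higher and 5.01% lower. The comparisons share libraries: ONC enters ONC/Ctrl and TPEN/ONC, Ctrl enters both comparisons against it, and TPEN enters both of its own.

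**Figure D3:**
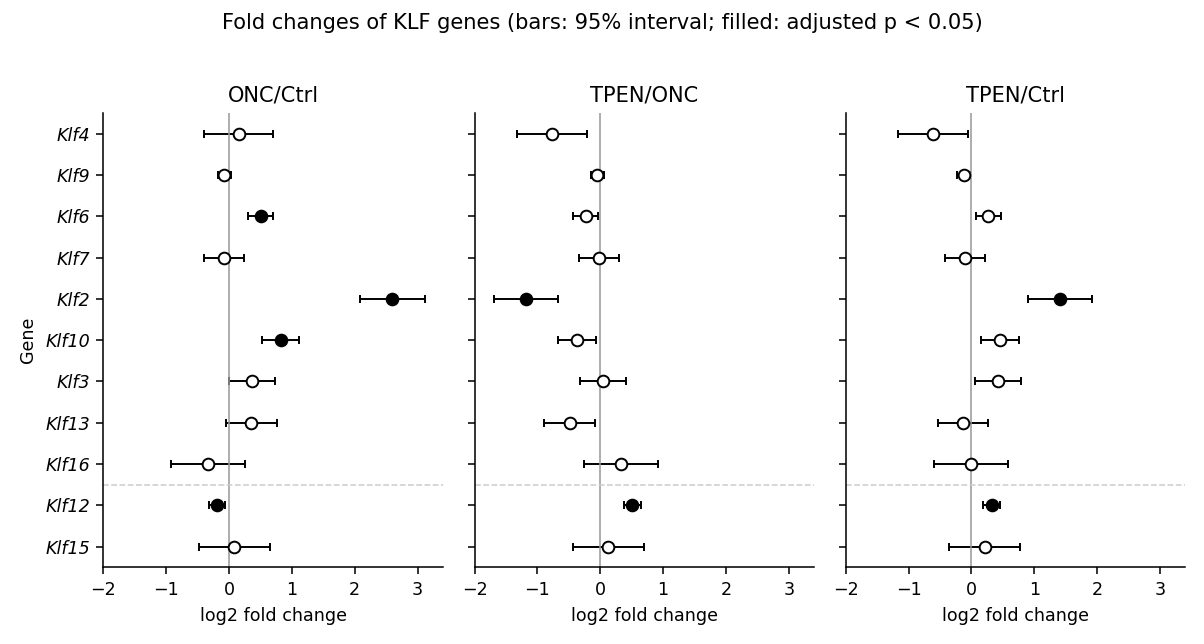
Log2 fold changes of the 9 KLF genes and, below the dashed line, of Klf12 and Klf15, in ONC/Ctrl, TPEN/ONC and TPEN/Ctrl; bars are 95% intervals from limma over the 9 libraries and filled points have an adjusted p under 0.05. Klf2 is the member farthest from 0 in each panel, and Klf9 has the narrowest interval.

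Of the growth-repressing pair, neither Klf4 nor Klf9 passed the test in ONC/Ctrl or in TPEN/ONC. Klf9 (chr19:23141226-23166911, plus strand), a factor induced by thyroid hormone and glucocorticoids that limits axon growth as RGCs mature, measured 28.5, 28.4 and 28.3 RPKM in the Ctrl libraries, 26.8, 26.8 and 27.3 RPKM in ONC and 24.1, 27.6 and 26.7 RPKM in TPEN. Every ONC and TPEN library lay below every Ctrl library, while ONC and TPEN overlapped. The log2 fold change of ONC/Ctrl was −0.08 (SE 0.047, 95% interval −0.18 to 0.03, adjusted p = 0.309, limma with Benjamini-Hochberg adjustment). That of TPEN/Ctrl was −0.13 (interval −0.23 to −0.02, adjusted p = 0.119). With 1569 to 2142 reads per library, Klf9 was the member with the deepest counts.

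Klf4 (chr4:55527143-55532466, minus strand), which restrains axon growth and has been tied to inhibition of STAT3 in RGCs, measured 1.84, 2.44 and 1.62 RPKM in Ctrl, 2.18, 2.46 and 1.88 RPKM in ONC and 1.81, 0.827 and 1.23 RPKM in TPEN. The Ctrl and ONC libraries overlapped, and all TPEN libraries lay below all ONC libraries. The change from Ctrl to ONC was 0.15 on the log2 scale (SE 0.25, interval −0.40 to 0.70, adjusted p = 0.730). From ONC to TPEN it was −0.77 (SE 0.25, interval −1.32 to −0.21, adjusted p = 0.101), which missed the threshold. Over the limma fits without 1 library each it ranged from −1.03 to −0.51 (adjusted p = 0.0333 to 0.246). Klf4 passed without TPEN replicate 1, the highest of the TPEN libraries, whose removal by itself enlarges the fall. Voom on whole reads called Klf4 at −0.83 (adjusted p = 0.00714). Against Ctrl the log2 fold change of Klf4 in TPEN was −0.62 (adjusted p = 0.140). The fits without 1 library each gave −0.88 to −0.36 (adjusted p = 0.0348 to 0.352), and voom gave −0.69 (adjusted p = 0.0262).

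Of the growth-promoting pair, Klf6 rose after crush and Klf7 did not pass in any comparison. Klf6 (chr13:5861489-5870393, plus strand), known as an early gene of tissue injury, measured 2.98, 2.64 and 2.63 RPKM in Ctrl, 3.81, 4.10 and 3.91 RPKM in ONC and 3.07, 3.26 and 3.70 RPKM in TPEN. The ranges of the 3 groups did not overlap, with TPEN between Ctrl and ONC. ONC/Ctrl was 0.50 on the log2 scale (SE 0.090, interval 0.30 to 0.71, adjusted p = 0.00343). TPEN/ONC was −0.23 (interval −0.44 to −0.03, adjusted p = 0.157) and TPEN/Ctrl 0.27 (interval 0.07 to 0.47, adjusted p = 0.0805). The TPEN libraries held 49.7% ± 27.0 (SD, n = 3) of the rise from the Ctrl mean to the ONC mean, a share whose spread covers 27.1% to 79.6%.

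Klf7 (chr1:64029447-64122282, minus strand), the other growth-promoting factor, measured 1.30, 1.40 and 1.73 RPKM in Ctrl, 1.41, 1.19 and 1.58 RPKM in ONC and 1.46, 1.35 and 1.26 RPKM in TPEN. All 3 groups overlapped. The log2 fold changes were −0.08 in ONC/Ctrl (interval −0.40 to 0.24, adjusted p = 0.751), −0.03 in TPEN/ONC (interval −0.34 to 0.29, adjusted p = 0.941) and −0.11 in TPEN/Ctrl (adjusted p = 0.685). The gene Gm26649 lies on the other strand of Klf7, and the counting was not stated to use strand, so their reads cannot be told apart.

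The ratio of a growth-repressing to a growth-promoting transcript was taken within each library, on the log2 scale. The ratio Klf9/Klf6 was 3.22, 3.38 and 3.38 in Ctrl, 2.78, 2.68 and 2.77 in ONC and 2.93, 3.04 and 2.82 in TPEN. It was lower in ONC than in Ctrl by 0.58, with TPEN between them and no overlap of the 3 groups. In an exact permutation test of all 3 groups at once its p was 0.00357, the smallest the test can give. After adjustment over the 4 ratios it was 0.0143. The test covers the 9 libraries and no single pair of groups. The difference of 0.58 is made up of the Klf6 rise of 0.50 and the Klf9 difference of −0.08. The ratio is therefore mostly the Klf6 change seen again and no independent result.

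The ratio Klf4/Klf6 averaged −0.48 ± 0.32 in Ctrl, −0.84 ± 0.16 in ONC and −1.37 ± 0.57 in TPEN (SD, n = 3). It was lowest in 2 of the 3 TPEN libraries, while TPEN replicate 1, at −0.74, lay within the range of ONC. Its exact permutation p was 0.0536, and 0.107 after adjustment. Without 1 library each the unadjusted permutation p ranged from 0.00357, reached without TPEN replicate 1, to 0.139. The ratios to Klf7 gave no such separation: Klf9/Klf7 averaged 4.19, 4.19 and 4.17 in Ctrl, ONC and TPEN (exact permutation p = 0.989, adjusted 0.989), and Klf4/Klf7 averaged 0.38, 0.61 and −0.13 (exact permutation p = 0.189, adjusted 0.252). The mean log2 level of the repressing pair minus that of the promoting pair was 1.85 ± 0.21 in Ctrl, 1.68 ± 0.16 in ONC and 1.40 ± 0.20 in TPEN (SD, n = 3).

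**Figure D4:**
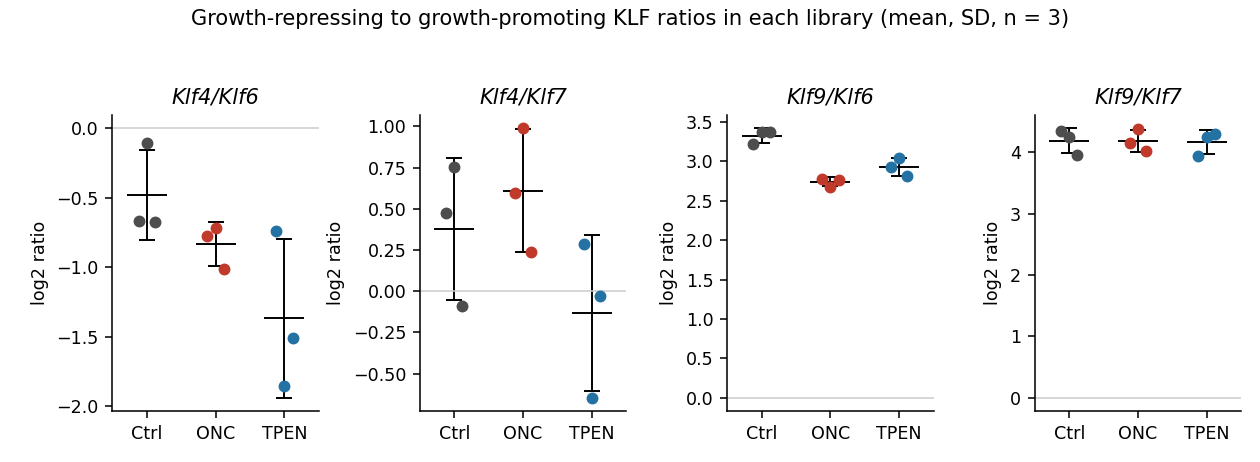
Log2 ratio of a growth-repressing to a growth-promoting KLF transcript in each library, 1 panel per ratio with its own vertical axis; points are libraries, bars group means and whiskers SD (n = 3). Only in the panel of Klf9/Klf6 do the 3 groups not overlap, with means of 3.32 in Ctrl, 2.74 in ONC and 2.93 in TPEN.

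Klf2 (chr8:72319033-72321656, plus strand) was the lowest member in Ctrl, at 0.266, 0.258 and 0.351 RPKM, from 11, 11 and 13 reads. It measured 2.31, 2.55 and 1.96 RPKM in ONC and 0.759, 0.755 and 1.41 RPKM in TPEN, where replicate 3 stood above the other two. No group overlapped another. On the log2 scale Klf2 changed by 2.60 in ONC/Ctrl (SE 0.23, interval 2.09 to 3.11, adjusted p = 3.99e-05), −1.19 in TPEN/ONC (interval −1.70 to −0.68, adjusted p = 0.0139) and 1.41 in TPEN/Ctrl (interval 0.90 to 1.92, adjusted p = 0.00288). TPEN libraries held 34.6% ± 19.1 (SD, n = 3) of the rise, with 23.6%, 23.5% and 56.6% in the single libraries. The TPEN/ONC call was lost without ONC replicate 1 (−1.17, adjusted p = 0.0539), without ONC replicate 2 (−1.10, adjusted p = 0.0587) or without TPEN replicate 1 (−1.05, adjusted p = 0.0512). Klf2 passed the filter of a mean of 0.5 RPKM through ONC and TPEN, since its Ctrl mean was 0.291 RPKM.

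Markers of microglia and macrophages moved in the same direction as Klf2, although the sort had gated against leukocyte antigens. Of 10 such markers 9 could be tested: all 9 rose in ONC/Ctrl, and 6 fell in TPEN/ONC. Their summed level was 6.98 to 8.13 RPKM in Ctrl, 38.6 to 39.1 RPKM in ONC and 23.2 to 25.7 RPKM in TPEN, and none of the 10 was at 0 in any library. Per unit of this sum Klf2 measured 3.17% to 5.02% in Ctrl, 5.06% to 6.51% in ONC and 3.16% to 5.49% in TPEN. Klf6 measured 32.5% to 37.7% of the sum in Ctrl, 9.85% to 10.5% in ONC and 12.8% to 14.4% in TPEN. Klf10 measured 8.26% to 10.3% in Ctrl, 3.18% to 3.92% in ONC and 3.52% to 4.91% in TPEN. Reactive glia markers, led by the intermediate filament gene Gfap, also summed higher, at 27.2 to 28.3 RPKM in ONC and 17.3 to 20.0 RPKM in TPEN against 5.54 to 6.21 RPKM in Ctrl. Markers of endothelial cells and pericytes, of which 5 of 9 had a row, summed to 14.5 to 15.2, 16.8 to 17.0 and 17.6 to 18.5 RPKM in Ctrl, ONC and TPEN. The part of these cells in the KLF changes was not tested.

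Klf10 (chr15:38294413-38300707, minus strand), which TGF-β induces and which binds Sin3A, rose with Klf2 and Klf6 after crush. It measured 0.659, 0.753 and 0.720 RPKM in Ctrl, 1.24, 1.24 and 1.52 RPKM in ONC and 0.986, 1.14 and 0.906 RPKM in TPEN. The 3 groups did not overlap, again with TPEN in the middle. ONC/Ctrl was 0.82 on the log2 scale (SE 0.13, interval 0.52 to 1.12, adjusted p = 0.00212). TPEN/ONC was −0.37 (interval −0.67 to −0.07, adjusted p = 0.137) and TPEN/Ctrl 0.45 (interval 0.15 to 0.75, adjusted p = 0.0551). The TPEN libraries held 48.0% ± 19.0 (SD, n = 3) of its rise.

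Klf3, Klf13 and Klf16 stood at or below 1.35 RPKM in every library and passed in no comparison. Klf3 (chr5:64803388-64832901, plus strand), a CtBP-dependent repressor, measured 0.524, 0.577 and 0.478 RPKM in Ctrl, 0.840, 0.565 and 0.740 RPKM in ONC and 0.810, 0.673 and 0.727 RPKM in TPEN. All TPEN libraries lay above Ctrl, while ONC overlapped Ctrl through replicate 2. The difference of Klf3 was 0.37 on the log2 scale in ONC/Ctrl (adjusted p = 0.158) and 0.42 in TPEN/Ctrl (adjusted p = 0.133), and voom on whole reads called both (adjusted p = 0.0481 and 0.0347). Gm20033 lies on the other strand of Klf3, with the same limit as for Klf7.

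Klf13 (chr7:63886351-63938915, minus strand), a Sin3A-binding factor, measured 0.628, 0.540 and 0.410 RPKM in Ctrl, 0.728, 0.671 and 0.676 RPKM in ONC and 0.399, 0.442 and 0.566 RPKM in TPEN. ONC lay above the other groups without overlap. Its log2 fold change was 0.35 in ONC/Ctrl (interval −0.05 to 0.75, adjusted p = 0.214) and −0.49 in TPEN/ONC (interval −0.89 to −0.09, adjusted p = 0.143), the latter called, of the alternatives run, only by voom (adjusted p = 0.0418). Klf16 (chr10:80567124-80577321, minus strand), also a Sin3A-binding factor and the member with the largest SE (0.26 in each comparison), measured 0.901, 0.858 and 1.08 RPKM in Ctrl, 0.488, 0.944 and 0.814 RPKM in ONC and 1.35, 0.892 and 0.675 RPKM in TPEN. It differed by −0.34 in ONC/Ctrl, 0.33 in TPEN/ONC and −0.01 in TPEN/Ctrl on the log2 scale (adjusted p = 0.431, 0.524 and 0.990).

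Of 7 further KLF genes, Klf12 and Klf15 had a row. Klf12, a CtBP-binding repressor related to Klf3, measured 10.0, 9.79 and 9.47 RPKM in Ctrl, 7.85, 9.06 and 8.75 RPKM in ONC and 12.54, 12.10 and 12.02 RPKM in TPEN. It was thus above every member but Klf9, and its TPEN libraries stood above all others. Klf12 rose in TPEN/ONC by 0.51 on the log2 scale (SE 0.058, adjusted p = 9.83e-04) and in TPEN/Ctrl by 0.32 (adjusted p = 0.00580). Its fall in ONC/Ctrl, −0.19 (adjusted p = 0.0476), lay at the threshold and was lost with voom (adjusted p = 0.117) and in 8 of the 9 fits without 1 library (adjusted p up to 0.140). All 4 cone markers were also higher in TPEN/ONC, with a sum of 147 to 150 RPKM in TPEN against 84.0 to 91.8 RPKM in ONC and 96.9 to 102 RPKM in Ctrl. Müller glia markers summed to 530 to 550, 555 to 568 and 436 to 448 RPKM in Ctrl, ONC and TPEN. RGC markers, mostly Nefl, summed to 333 to 344, 349 to 370 and 269 to 281 RPKM. In each list 3 of 6 tested were lower in TPEN/ONC and 1 was higher. In ONC/Ctrl the Müller glia genes Glul, Rlbp1 and Aqp4 fell. Only Apoe of that list rose, from 168 to 174 RPKM in Ctrl to 264 to 274 RPKM in ONC. The part of these cells in the Klf12 change was not tested. Klf15 passed in no comparison. The related SP factors, which bind GC boxes through the same type of zinc finger, had 6 tested genes, of which Sp3 (−0.16) and Sp4 (−0.17) fell in ONC/Ctrl and none passed in TPEN/ONC (limma; 2 higher at an unadjusted p under 0.05, 0 by voom).

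For all gene lists given here, the shares of all genes tested were 11.7% higher and 6.97% lower in ONC/Ctrl. In TPEN/ONC they were 3.24% and 4.14%. Of 11 genes for KLF cofactors, Crebbp, an acetyltransferase gene, rose in ONC/Ctrl by 0.15 on the log2 scale. That call lay at the threshold (limma, adjusted p = 0.0481). None fell by limma, while 1 was lower at an unadjusted p under 0.05 and 1 by voom. Kat2a, another acetyltransferase gene, fell in TPEN/ONC (−0.41), and the corepressor genes Ctbp1, Ctbp2, Sin3a and Sin3b did not pass. Of the 7 genes of the MEK5, ERK5 and MEF2 pathway upstream of Klf2, Mef2d rose in ONC/Ctrl by 0.20, whereas the kinase gene Map3k2 (−0.40) and Mef2c (−0.22) fell. Map3k2 rose in TPEN/ONC by 0.39. Of 4 genes listed as targets of KLF2, 2 were tested and neither passed in ONC/Ctrl or TPEN/ONC (limma; 0 and 1 at an unadjusted p under 0.05, 0 by voom). Of 9 TGF-β and SMAD genes, which lie upstream of Klf10, 7 were tested and none passed in ONC/Ctrl or TPEN/ONC by limma. Of the 7, Tgfb2 and Smad7 passed in TPEN/Ctrl, at 0.38 and 0.41 (limma, adjusted p = 0.0419 and 0.0252). At an unadjusted p under 0.05, 3 were higher and 1 lower in ONC/Ctrl and 1 was higher in TPEN/ONC. Voom called 1 higher in ONC/Ctrl.

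The other two TGF-β genes, under the filter of 0.5 RPKM, did move. The ligand gene Tgfb1 measured 0.0177 to 0.0593 RPKM in Ctrl, 0.423 to 0.518 RPKM in ONC and 0.129 to 0.298 RPKM in TPEN. The receptor gene Tgfbr2 measured 0.0634 to 0.131, 0.510 to 0.745 and 0.281 to 0.392 RPKM. For both, the groups did not overlap and stood in the order of Klf10. The summed microglia and macrophage markers and Gfap stood in that order too, so it is not particular to these genes. In the limma fit without a filter Tgfb1 rose in ONC/Ctrl by 1.97 on the log2 scale (adjusted p = 1.86e-04) and fell in TPEN/ONC (−0.92, adjusted p = 0.0359), and Tgfbr2 rose in ONC/Ctrl by 1.89 (adjusted p = 1.16e-04) and was at −0.66 in TPEN/ONC (adjusted p = 0.0805). In Ctrl, Tgfb1 rested on 2, 6 and 6 reads and Tgfbr2 on 24, 12 and 12. Both genes were singled out after their values were seen.

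Among the hormone receptors upstream of Klf9, the glucocorticoid receptor gene Nr3c1 (−0.15) and the thyroid hormone receptor gene Thra (−0.15) fell in ONC/Ctrl, 2 of 6 tested, and none passed in TPEN/ONC (limma; 1 lower at an unadjusted p under 0.05, 0 by voom). Of 5 tested genes that glucocorticoids induce, Fkbp5 rose in ONC/Ctrl by 0.39 and Tsc22d3 fell in TPEN/ONC (−0.40). Of 10 tested axon growth partners and targets, 4 rose in ONC/Ctrl: Stat3 by 1.97, its feedback inhibitor gene Socs3 by 1.92, the growth cone gene Gap43 by 1.61 and the injury factor gene Atf3 by 1.20. In TPEN/ONC, Atf3 (−0.44) and Gap43 (−0.28) fell. Of 3 more under the filter, Cdkn1a, a cell cycle inhibitor gene, and Sox11, a growth-associated factor gene, rose in ONC/Ctrl in the fit without a filter, by 2.21 (adjusted p = 0.00159) and 0.92 (adjusted p = 0.00451), and no such gene passed in TPEN/ONC. In Ctrl, Cdkn1a had 2, 0 and 5 reads and Sox11 had 7, 4 and 3, so the added 0.1 RPKM weighs on these fold changes. Dusp14 and Mapk10, listed among these partners and targets, did not pass in ONC/Ctrl or TPEN/ONC, and Mapk10 passed in TPEN/Ctrl at 0.46 (adjusted p = 0.0335).

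Immediate-early genes respond to injury and also to tissue dissociation. Of 13 tested, 5 rose in ONC/Ctrl and none fell (limma; 0 lower at an unadjusted p under 0.05 and by voom), with Junb at 1.37, Atf3 at 1.20, Zfp36 at 1.02 and Btg2 at 0.37 on the log2 scale. In TPEN/ONC, 3 fell, Fosb (−0.66), Atf3 (−0.44) and Fos (−0.25). The part of dissociation in the KLF changes was not tested.

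The genes with the pattern most like that of a member were taken by Pearson's r of log2 levels over the 9 libraries, among the 12143 genes that averaged 1 RPKM or more. For Klf6 they were Rpl28 (r = 0.983), Adcy1 (0.978) and Klhl2 (0.974). For Klf9 they were Mcm8 (0.970), Twnk (0.961) and Rasgrp4 (0.961), for Klf4 Abat (0.946), Nim1k (0.943) and Mbd1 (0.939), and for Klf7 Lrit3 (0.933), Pdk1 (0.917) and Atmin (0.902). For Klf2, added after its values were seen, they were Adcy1 (0.982), Selenop (0.981) and Eef1b2 (0.980). Adcy1 stood on the lists of both Klf2 and Klf6. These r describe 9 libraries in 3 groups that share the same scaling, and the highest of 12143 values is high by the choice.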

How the data were processed

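Sorted RGCs of 9 libraries were profiled by stranded mRNA sequencing with molecular identifiers. Per the study's methods the reads were trimmed (Trimmomatic 0.36 in the submitters' processing notes), aligned with STAR to GRCm38 (mm10) and compared with edgeR. The counting program, the annotation, the collapsing of identifiers and the use of strand in counting are not given in the sources used here. The authors deposited RPKM values per gene and library, together with exon coordinates, exon lengths and columns of their own fold changes and p-values, which were not used. All RPKM values corresponded to whole reads at a tolerance of 0.01 read, which gave the library totals. The intervals given are 95% intervals from limma and rest on the spread between libraries.

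RPKM values were tested as log2(RPKM + 0.1) with limma 3.58.1 (trend, R 4.3.3), 1 coefficient per group over the 9 libraries, for the 13566 genes that averaged 0.5 RPKM or more. P-values were adjusted by Benjamini-Hochberg over these genes, and an adjusted p under 0.05 passed. Fold changes on this scale understate those of low genes, and ratios of means are of plain RPKM. Ratios within libraries were tested by exact permutation of the between-group to within-group variance. That test takes all 3 groups at once and has no direction. The members and lists were chosen with earlier results of these data known. All members are named, and of other lists at most 4 genes that passed in ONC/Ctrl or TPEN/ONC with the largest change, besides genes named as not passing. The fit with the study's 1.5-fold limit, quantile normalization, other filters and pseudocounts, voom, a replicate block and fits without 1 library each were tried. Upstream sequences are from RefSeq (GRCm38.p6), matched by symbol.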

Additional observations from a re-analysis of the deposited data

How the results depend on the processing

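No result changed direction past the threshold under any alternative run. KLF members higher in ONC/Ctrl numbered 3, but 2 at a fold of at least 1.5, 4 with voom on whole reads and 1 (Klf2) in the test against a fold of 1.5. That stricter test left 0 lower in TPEN/ONC and 0 higher in TPEN/Ctrl. Voom on whole reads gave 3 members lower in TPEN/ONC, 2 higher in TPEN/Ctrl and 1 lower in TPEN/Ctrl. Without 1 library each, members lower in TPEN/ONC ranged from 0 to 1 and members lower in TPEN/Ctrl from 0 to 1. For the ratio Klf4/Klf6 the exact permutation p was 0.0429 after quantile normalization and 0.00357 to 0.139 without 1 library each. The cause of these differences was not tested.

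Replicate numbers did not pair the libraries: deviations of same-numbered libraries correlated at −0.062 to 0.027. With a replicate block the members higher in ONC/Ctrl were 3, and Klf2 in TPEN/ONC had an adjusted p of 0.0298. Klf2 in Ctrl rested on 11 to 13 reads per library, where a single read moves the level most.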
